A study of Mus musculus with 44 samples.

Results

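The genes described here are 37 named genes of the interferon response and of class I antigen presentation, chosen by name and not by their values. They were read from arrays of mouse calvarial osteoblast cultures. A probe set, the group of probes that reads 1 transcript on an array, counted as a member if the array annotation gave it exactly 1 of these 37 symbols. This gave 61 probe sets for 35 of the genes, out of 36701 probe sets for 15944 named genes on arrays A, B and C. Of the 35 genes, 19 had 1 probe set and 16 had several. Irf2 had no probe set of its own in the annotation, and the probe sets of Psme2 also carried another gene's symbol, so that neither gene was measured here. Testing was limited to probe sets brighter than the median of their array on at least 3 arrays of the fit, and this left 45 member probe sets of 29 genes for the sorted cells and 37 of 28 genes on array A alone. Cxcl10, Mx1 and Ifit2 lay below the array median on every array and are described no further, apart from a call of Ifit2 without this filter.

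The cultures came from mice labelled as 7 days old and newborn, of a strain not given in the sources used here. All cultures expressed green fluorescent protein (GFP) from a fragment of a type I collagen promoter, so that GFP marked osteoblast lineage cells in which that fragment was active, and the GFP-negative fraction held whatever other cells the culture contained. At day 7 the transgene was pOBCol3.6GFP and the medium had no additions. At day 17 it was pOBCol2.3GFP, and ascorbic acid and beta-glycerophosphate had been present from day 7 on. Day, transgene and additions changed together and cannot be told apart. Each day had 3 experiments, and each experiment gave RNA of the unsorted culture, of GFP-positive cells and of GFP-negative cells, 18 RNA samples in 6 groups of 3. Array A held all 18, whereas arrays B and C held the 12 sorted samples and 1 unsorted one. The fractions had been separated by fluorescence-activated sorting.

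Interferons are secreted signals that bind receptor pairs on the cell surface, Ifnar1 with Ifnar2 for type I interferons and Ifngr1 with its partner for interferon gamma. The receptors activate STAT transcription factors, which bind response elements in the promoters of target genes together with interferon regulatory factors such as Irf9 or through Irf1. The targets include antiviral proteins, GTPases that act against intracellular pathogens, and the machinery that shows peptides on class I molecules at the cell surface. In that machinery the immunoproteasome cuts proteins, Tap1 and Tap2 carry the peptides into the endoplasmic reticulum, Tapbp (tapasin) helps to load them, and H2-D1 or H2-K1 presents them together with B2m. Bone cells of many kinds respond to interferons, and interferon signalling is known to restrain osteoclast formation.

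Many of the genes have letters of these response elements close to their start sites, and the promoters of those the results turn on are shown for that reason. Windows of 300 bases, from 250 before to 50 after the start site, were taken from RefSeq on GRCm38.p6 and held 34 of the 37 genes in 42 windows. The core of the interferon-stimulated response element was searched as GAAANNGAA and the gamma-activated site as TTCNNNGAA, both on either strand. The core was found in 15 of 34 genes (44.1%), against 9.76% of all 27025 genes in the table, and the gamma-activated site in 10 (29.4%), against 9.55%. Adar, Eif2ak2, Igtp and Irf2, 4 genes or 11.8% against 1.42%, had both, and in 0 of the 42 windows did the motifs overlap each other. Isg15 and Ifit1 each had 3 matches of the core, some of which overlap each other, and Gbp2 had 1 that begins 58 bases before the start site. Psmb8 and Irf1 had a gamma-activated site, at 97 and 90 bases before it. The windows of H2-D1, H2-K1, Tap1, Psmb9 and Tapbp held neither motif. A match is a run of letters and not a measured site, and windows without one say nothing of the factors. The 250 bases upstream are given with matches in capitals, for Gbp2 (chr3:142620413-142620662, plus strand), Psmb8 (chr17:34197945-34198194, plus strand), Stat2 (chr10:128270248-128270497, plus strand), Isg15 (chr4:156200819-156201068, minus strand) and H2-D1 (chr17:35262844-35263093, plus strand):
Gbp2: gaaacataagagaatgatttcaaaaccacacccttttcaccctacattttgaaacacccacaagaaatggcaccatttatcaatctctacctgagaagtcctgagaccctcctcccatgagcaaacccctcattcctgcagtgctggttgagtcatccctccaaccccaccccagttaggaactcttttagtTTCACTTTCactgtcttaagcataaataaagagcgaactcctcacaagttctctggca
Psmb8: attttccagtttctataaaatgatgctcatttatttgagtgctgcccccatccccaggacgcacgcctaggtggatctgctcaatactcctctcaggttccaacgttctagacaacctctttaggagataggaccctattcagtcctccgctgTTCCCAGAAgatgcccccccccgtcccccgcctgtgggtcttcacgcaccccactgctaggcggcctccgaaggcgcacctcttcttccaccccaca
Stat2: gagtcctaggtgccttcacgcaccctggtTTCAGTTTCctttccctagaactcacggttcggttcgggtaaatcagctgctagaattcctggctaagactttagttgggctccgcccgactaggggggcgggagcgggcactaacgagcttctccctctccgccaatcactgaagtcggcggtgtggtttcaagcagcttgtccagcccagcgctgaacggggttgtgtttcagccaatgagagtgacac
Isg15: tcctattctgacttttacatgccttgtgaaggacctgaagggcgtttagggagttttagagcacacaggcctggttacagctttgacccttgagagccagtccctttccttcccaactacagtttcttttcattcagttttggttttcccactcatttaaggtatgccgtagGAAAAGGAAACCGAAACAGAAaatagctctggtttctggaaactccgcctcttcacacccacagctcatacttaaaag
H2-D1: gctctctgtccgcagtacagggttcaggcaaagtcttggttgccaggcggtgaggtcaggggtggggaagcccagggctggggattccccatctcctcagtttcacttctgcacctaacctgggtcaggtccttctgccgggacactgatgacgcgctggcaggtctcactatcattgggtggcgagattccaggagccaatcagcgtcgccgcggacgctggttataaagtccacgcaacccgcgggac

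Values below are normalised intensities, on a linear scale and quantile-normalised within array type, and differences are given as log2 of the intensity plus 32 with the standard error of a limma fit. The 2% trimmed mean of an array as deposited was 1069 to 1766 for array A, 1367 to 1723 for B and 1259 to 1606 for C. With n = 3 a group the number of arrays limits the precision. A probe set was called at a Benjamini-Hochberg adjusted p under 0.05 over all probe sets tested. The samples of Exp106 stood apart, with a mean correlation of 0.839 with the other samples on array A against 0.943 among those others. Results are therefore given without this experiment as well. Collagen Col1a1 read from 42648 to 149225 in all 18 samples. Bone sialoprotein Ibsp was 36.8 to 1903 at day 7 and 11864 to 100227 at day 17. Of the macrophage and leukocyte markers all 21 had a probe set, none of them below the median on every array, so that leukocyte transcripts were present, while 8 of 9 T and NK cell markers on array A never passed the array median, among them Cd3e (86.5 to 359).

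Between the day 17 fractions, Gbp2, Psmb8 and H2-D1 were called lower in GFP-positive cells, and 0 members were called higher. Gbp2, a guanylate-binding GTPase, read 146, 157 and 156 in the GFP-positive samples of Exp100, Exp105 and Exp106. It read 1186, 738 and 663 in the GFP-negative samples of the same experiments, and 830.4, 933 and 979.5 in the unsorted ones. The GFP-positive samples were thus the lowest of the 9, close to each other and far from the rest. This probe set was above the array median on 15 of 18 arrays, and these GFP-positive samples were the ones below it. The difference was -2.23 ± 0.33 (adjusted p = 0.00515), a 4.69-fold lower level, and it was lower in 3 of 3 experiments. Psmb8, the catalytic subunit that replaces Psmb5 in the immunoproteasome, read 779.9, 655 and 1073 in GFP-positive and 3972, 2728 and 2545 in GFP-negative samples, again without overlap. Its difference was -1.84 ± 0.30 (adjusted p = 0.0111), a 3.59-fold lower level. H2-D1, a class I heavy chain, read 9938, 13405 and 10281 in GFP-positive and 22982, 22900.2 and 17717 in GFP-negative samples with its brightest probe set. This heavy chain was -0.92 ± 0.18 (adjusted p = 0.0318), a 1.89-fold lower level. All 3 of these calls held without Exp106, at -2.40 ± 0.33 for Gbp2, -2.15 ± 0.31 for Psmb8 and -0.99 ± 0.15 for H2-D1. H2-D1 lost its call (adjusted p from 0.124 to 0.157) without GFP-negative replicate Exp100, GFP-positive replicate Exp100 or GFP-negative replicate Exp105, and Psmb8 (0.0701) without GFP-negative replicate Exp100. In a fit of only the 6 samples compared, 0 members were called, with adjusted p of 0.377 for Gbp2, 0.123 for Psmb8 and 0.339 for H2-D1.

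Over the 45 member probe sets, 3 were called lower and 0 higher, where 1.28% of all 22099 probe sets were called in either direction and 0.991% lower. With experiment as a block 5 members were called lower against 2.21% of all, the added ones being another probe set of H2-D1 (-0.71, adjusted p = 0.0352) and Tapbp (-1.14, adjusted p = 0.0481). With the block and without Exp106, H2-K1 was called (-0.69, adjusted p = 0.0368) and Tapbp was not. H2-K1 read 15373, 15195 and 21132 in GFP-positive and 26606, 22783 and 27342 in GFP-negative samples. Tapbp read 1555, 1482 and 1372 in GFP-positive and 3687, 3519.8 and 2712 in GFP-negative samples with its brightest probe set, without overlap. In all, 13 of the 45 member probe sets had GFP-positive samples entirely below the GFP-negative ones, against 7.43% of all probe sets, and 0 had them entirely above. The members' median difference was -0.45, with 34 of 45 below 0, against a median of -0.01 over all probe sets. In bulk RNA, fewer cells of a type and less RNA per cell cannot be told apart.

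**Figure D1:**
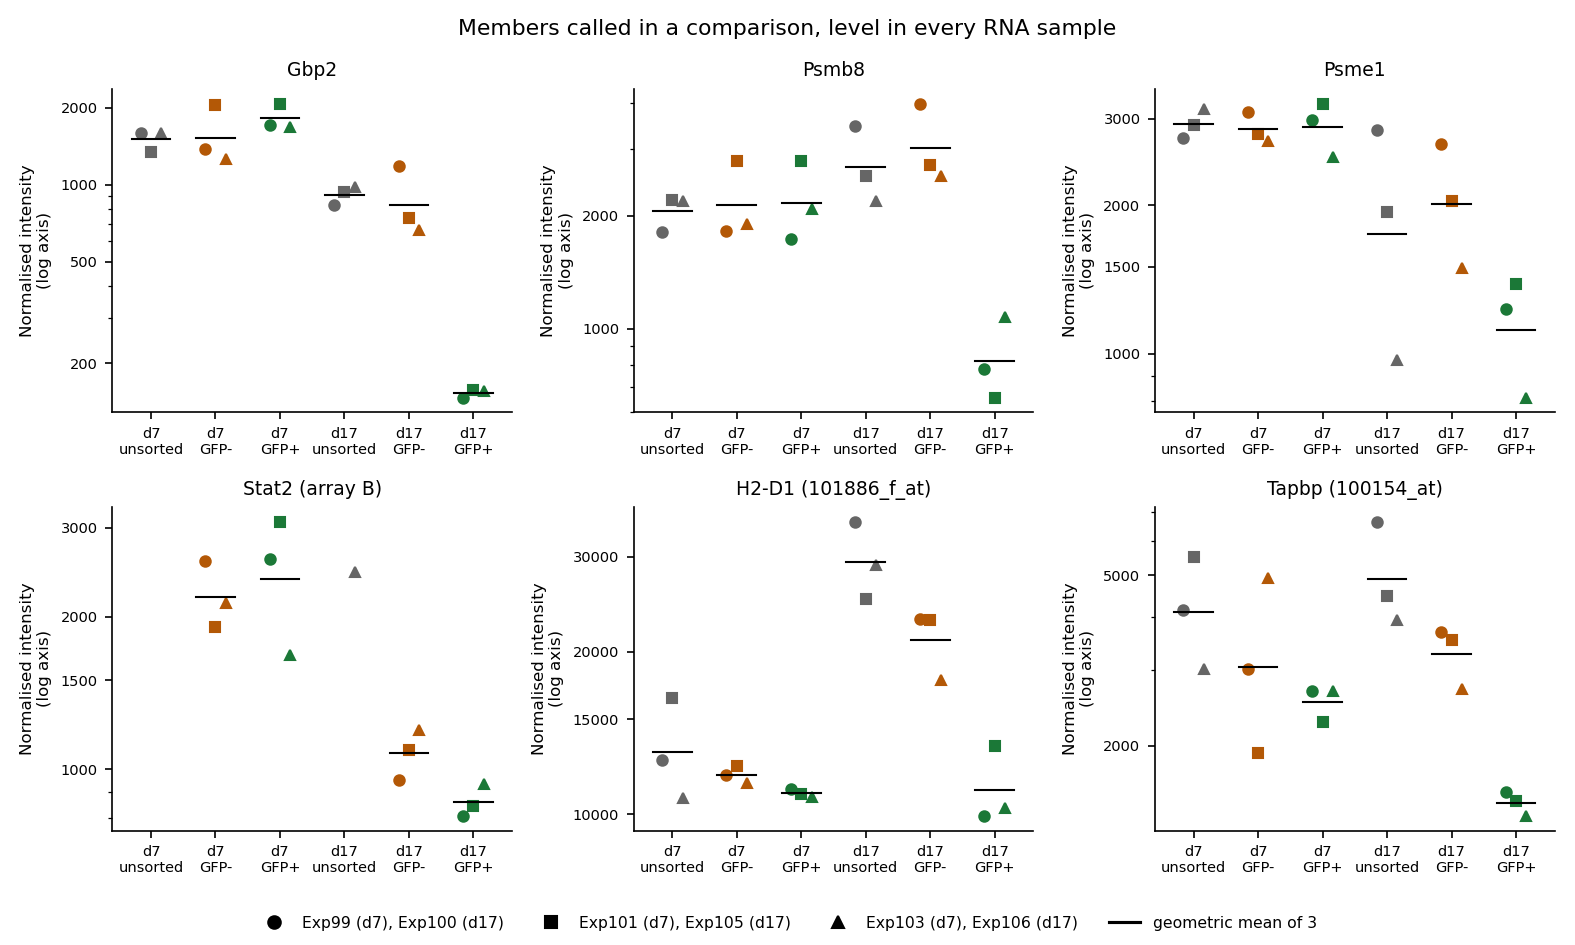
Normalised intensity (log axis) of 6 members in each RNA sample, by day (d7, d17) and fraction; symbols mark experiments and the line is the geometric mean of 3 samples. At day 17 the GFP-positive samples of Gbp2 lie at 146 to 157, below all others, and H2-D1 is highest in the unsorted day 17 cultures (25083 to 34854). Stat2 was on array B, where 1 unsorted sample was hybridised.

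By role, with 1 probe set a gene, the receptors and STATs showed no common direction at day 17. Their differences ran from -0.59 for Ifnar1 to 0.39 for Stat3, with a median of 0.07 over 5 genes. These values depended on the probe set. A second one of Ifnar1, on array C and above the median on 13 of 13 arrays, gave -0.08, and a second one of Ifnar2 gave -0.64 against 0.07. The mean differences of the interferon regulatory factors lay close to 0. They ran from -0.16 for Irf1, an activator of class I genes, to 0.02 for Irf9, the DNA-binding subunit of the complex with STATs. Single experiments lay on both sides of 0. Irf1 differed by -1.02, -0.32 and 0.86 in Exp100, Exp105 and Exp106, Irf9 by -0.92, 0.26 and 0.72, and Irf7 by 0.58, -0.01 and -0.88. The signs of Irf1, Irf3, Irf7 and Irf9 changed under at least 1 alternative. Of the genes in these 2 groups and the antiviral effectors limma called 0 (0 at an unadjusted p under 0.05; 0 with a block). The antiviral effectors Ifit1, Isg15, Ifi35 and Adar (here by its array A probe set), 4 of the 9 listed that were tested on these probe sets, were all below 0, from -0.28 to -0.80, and those of Isg15 and Ifit1 changed sign under at least 1 alternative. Of these, Isg15 is a ubiquitin-like protein tag and Adar edits double-stranded RNA. The GTPases Gbp2, Gbp3, Igtp and Irgm1 were all below 0 with a median of -1.11. Igtp, a GTPase of the same immunity-related family as Irgm1, read 317, 153 and 339.7 in GFP-positive against 635, 467 and 983 in GFP-negative samples, without overlap, a difference of -1.27 ± 0.44 that was not called (adjusted p = 0.258). The immunoproteasome and PA28 group had a median of -0.63 over 4 genes, from -1.84 for Psmb8 to -0.14 for Psmb9, the other inducible subunit encoded beside it. Psmb9 differed by -1.49 and -0.90 in Exp100 and Exp105 but by 1.96 in Exp106, and its sign changed under at least 1 alternative. The 6 class I presentation genes were all below 0, from -0.27 for B2m to -1.14 for Tapbp, with a median of -0.58 and only H2-D1 called. Socs1, which shuts off interferon signalling, differed by 0.17.

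**Figure D2:**
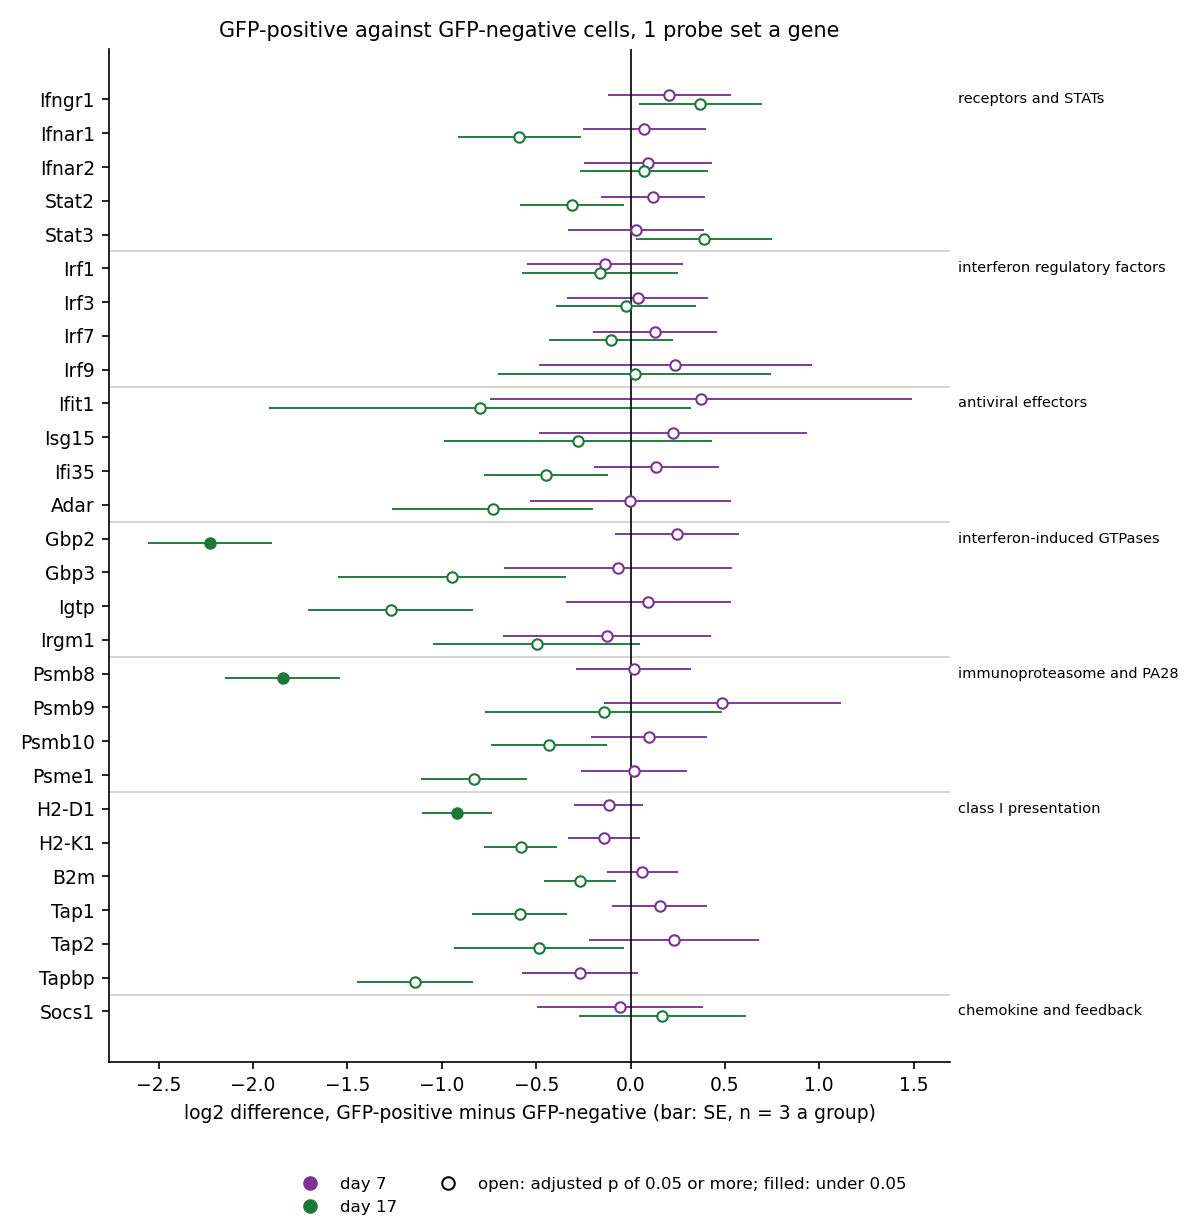
log2 difference between GFP-positive and GFP-negative cells for the 28 members tested on their chosen probe set, grouped by role, at day 7 and day 17; bars are standard errors with n = 3 a group, and filled points have an adjusted p under 0.05. The filled points are Gbp2, Psmb8 and H2-D1 at day 17, while the day 7 points range from -0.27 to 0.49.

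Within experiments, 16 of the 28 genes were lower in GFP-positive cells in 3 of 3 day 17 experiments, and 2 were lower in 0 of 3. Over probe sets, 21 of 45 were lower in 3 of 3, against 18.2% of all probe sets tested. The median difference over the 28 genes stood at -0.68, -0.50 and -0.36 in Exp100, Exp105 and Exp106, with 22, 24 and 19 genes below 0. At day 7 the corresponding medians were -0.02, 0.15 and 0.00 in Exp99, Exp101 and Exp103, and 2 of 28 genes were lower in 3 of 3, or 6 of 45 probe sets against 12.1% of all.

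Between the day 7 fractions limma called 0 member probe sets (0 also at an unadjusted p under 0.05, where 396 of all probe sets stood), with and without experiment as a block, and 0% of all probe sets were called. Gbp2 read 1715, 2077 and 1686 in GFP-positive and 1375, 2055 and 1261 in GFP-negative cells, so that the groups overlapped. Psmb8 read 1728, 2798 and 2079.5 against 1822, 2803 and 1894, and H2-D1 11131, 10896 and 10773 against 11816, 12312 and 11451. The differences were 0.25 ± 0.33 for Gbp2, 0.02 ± 0.30 for Psmb8 and -0.12 ± 0.18 for H2-D1. The H2-D1 samples did not overlap, yet lay within a narrow range. The members' median was 0.03 at day 7, with 20 of 45 below 0. On the scale as deposited it was -0.12, so that its sign depended on the scaling.

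The change of the GFP effect from day 7 to day 17 was tested directly. limma called 0 of the 45 member probe sets (4 at an unadjusted p under 0.05), and with experiment as a block 0 (10 unadjusted), where 0.222% of all were called. The differences farthest from 0 were -2.48 for Gbp2, -1.86 for Psmb8 and -1.36 for Igtp, and the median was -0.45, with 37 of 45 below 0, against -0.02 over all probe sets. Without Exp106, Gbp2 (-2.65 ± 0.43, adjusted p = 0.0321) and Psmb8 (-2.17 ± 0.41, adjusted p = 0.0449) were called. Without only its GFP-positive sample Gbp2 was called (-2.49 ± 0.46, adjusted p = 0.0440), as it was with the variance estimated separately for each array type (adjusted p = 0.0325).

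From day 7 to day 17, Gbp2, Stat2, Psmb8, Psme1 and Adar were called lower in GFP-positive cells, 5 members, and 0 were called higher. Against these 5 of 45 stand 4.85% of all probe sets called in either direction and 3.19% called lower. Gbp2 went from 1686 to 2077 at day 7 to 146 to 157 at day 17 (-3.32 ± 0.33, adjusted p = 0.000311). Its call held under each of its 14 alternatives, with adjusted p from 9.86e-05 to 0.0133. Stat2, the STAT specific to type I and III interferon signalling, read 2598, 3079.7 and 1684 at day 7 and 809.5, 846 and 935 at day 17 (-1.43 ± 0.27, adjusted p = 0.0116). Psme1, the alpha subunit of the proteasome activator PA28, read 2984, 3216 and 2508 against 1232, 1384 and 814 (-1.35 ± 0.28, adjusted p = 0.0178). Adar, by its probe set on array B, read 2273, 3193 and 2629.6 against 1403, 1129 and 1390.4 (-1.02 ± 0.24, adjusted p = 0.0324). Psmb8 was -1.36 ± 0.30 (adjusted p = 0.0247). None of these 5 overlapped between the days, and in all 14 of 45 member probe sets lay entirely lower at day 17, against 15.4% of all probe sets. Ifi35, an interferon-induced leucine zipper protein, read 1453, 1821 and 1409 at day 7 and 635, 449.7 and 949 at day 17. It was called with experiment as a random block (-1.22 ± 0.32, adjusted p = 0.0476) and not without it (0.0585).

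The counts of these calls moved with single samples. Without Exp106, 8 members were called lower and Ifngr1, the ligand-binding receptor chain for interferon gamma, was called higher (1.06 ± 0.26, adjusted p = 0.0288). Its values were 1703, 1494 and 1068 at day 17, against 649.9, 686 and 941 before. The additions among the lower ones were Ifi35, Irf9 (-1.44 ± 0.30, adjusted p = 0.0151) and Ifit1 (-4.04 ± 0.78, adjusted p = 0.0109), an effector that binds foreign RNA. Without GFP-positive replicate Exp101 of day 7 the count was 1, without replicate Exp99 it was 2, and without Exp103, or without replicate Exp100 or Exp105 of day 17, it was 3. In a fit of only the 6 samples compared, Gbp2 alone was called. The direction did not extend to all roles. H2-D1 differed by 0.02 and H2-K1 by 0.32 between the days in GFP-positive cells, Ifngr1 by 0.87 and Socs1 by 0.86, none of them called. The members' median was -0.39, against -0.06 over all probe sets.

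In GFP-negative cells limma called 0 members between the days (7 at an unadjusted p under 0.05; 0 with a random block), against 0.434% of all probe sets. Both directions occurred. Stat2 read 2583, 1913 and 2131 at day 7 and 954, 1094 and 1194 at day 17, a difference of -1.01 ± 0.27, and Gbp2 differed by -0.85 ± 0.33. H2-D1 was 0.83 ± 0.18 and H2-K1 0.76 ± 0.19 higher, and their samples did not overlap. Psmb8 differed by 0.50. In all 7 of 45 member probe sets lay entirely higher at day 17, against 8.65% of all probe sets, and 7 entirely lower, against 11.9%. Without Exp106, H2-D1 (0.95 ± 0.14, adjusted p = 0.0140) and H2-K1 (0.71 ± 0.15, adjusted p = 0.0487) were called.

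By role, the antiviral effectors were the group farthest below 0 between the days in GFP-positive cells, with a median of -1.30 over 4 genes, from -2.80 for Ifit1 to -1.06 for Isg15. Their median was -0.64 in GFP-negative cells and -0.61 over 5 genes in unsorted ones. The GTPases had a median of -0.97 in GFP-positive cells, against 0.05 in GFP-negative ones, and the immunoproteasome and PA28 group -0.87 against 0.27. For class I presentation the medians were -0.25 in GFP-positive, 0.32 in GFP-negative and 0.21 in unsorted cells. The receptors and STATs had a median of 0.21 in GFP-positive cells, with Stat2 at -1.43 and Ifngr1 at 0.87 as its ends, and the interferon regulatory factors one of 0.17.

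**Figure D3:**
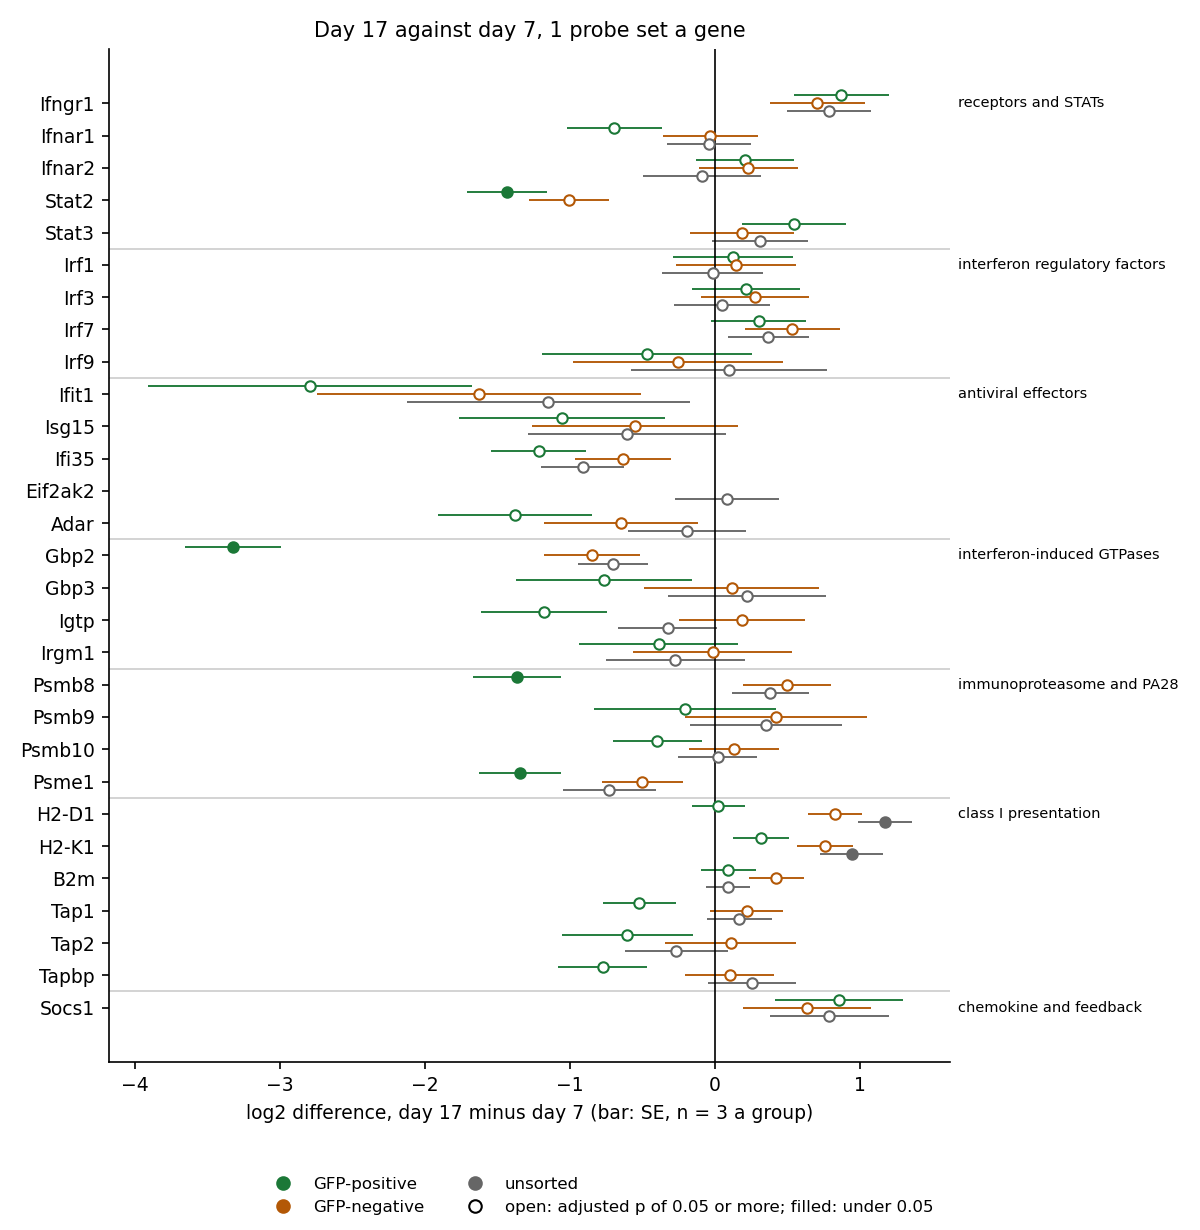
log2 difference between day 17 and day 7 for members tested on their chosen probe set, in GFP-positive, GFP-negative and unsorted cells; bars are standard errors with n = 3 a group, and filled points have an adjusted p under 0.05. Gbp2 stands at -3.32 in GFP-positive, -0.85 in GFP-negative and -0.70 in unsorted cells, and H2-D1 at 0.02, 0.83 and 1.17.

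In unsorted cultures the class I heavy chains rose with time. H2-D1, by the probe set used above, read 12616, 16413 and 10719 at day 7 and 34854, 25083 and 28999 at day 17 (1.17 ± 0.19, adjusted p = 0.00185). H2-K1, the other heavy chain among the members, read 13117, 19787 and 16789 against 29382, 24007 and 43832 with its brightest probe set (0.94 ± 0.22, adjusted p = 0.0210). The second probe sets of each gene gave 0.83 ± 0.21 for H2-D1 (adjusted p = 0.0293) and 1.04 ± 0.24 for H2-K1 (adjusted p = 0.0213). For all of them the lowest day 17 sample was above the highest day 7 sample. The call of H2-D1 by its brightest probe set held under each of its 13 alternatives, whereas the calls of the other 3 were lost without unsorted replicate Exp99, Exp103 or Exp106 alone (1, 1 and 2 members called) and in a fit of only the 6 samples compared. Without Exp106 as a whole all 4 were called, from 0.70 to 1.18. These are 4 called higher of 37 member probe sets and 0 lower, against 5.71% of all probe sets called and 3.04% called higher. In all 10 of 37 lay entirely higher at day 17, against 13.7%. The light chain B2m read 24785 to 41553 over all 18 samples and differed by 0.09 ± 0.15 between the unsorted cultures. It is among the brightest probe sets, where quantile normalisation fixes a value by its rank. Without Exp106 Ifi35 (-1.15 ± 0.21, adjusted p = 0.00351) and Gbp2 (-0.75 ± 0.23, adjusted p = 0.0452) were called lower as well.

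Unsorted day 17 cultures were also set against the mean of the 2 sorted fractions. Gbp2 (1.24 ± 0.21, adjusted p = 0.0128), H2-D1 (0.94 ± 0.16, adjusted p = 0.0128) and Tapbp (1.14 ± 0.26, adjusted p = 0.0410) were called higher in unsorted cells. Of the 37 member probe sets 0 were called lower, against 1.6% of all probe sets called and 1.49% called higher. Tapbp read 6654, 4467 and 3928 in the unsorted samples, above all 6 sorted ones. For Gbp2 the unsorted samples lay in the range of the GFP-negative ones. With experiment as a block 8 member probe sets were called higher against 6.26% of all, H2-K1, Psmb8 and Adar among the added genes. The call of Gbp2 was lost without unsorted replicate Exp100 (adjusted p = 0.0608) or Exp105 (0.0693), that of H2-D1 without replicate Exp100 (0.102), and 0 members were called without replicate Exp100. Tapbp kept its call without GFP-positive replicate Exp106 or GFP-negative replicate Exp100 and lost it (adjusted p from 0.0602 to 0.218) without any other single day 17 sample. In a fit of only the 9 samples compared, 0 were called. Without unsorted replicate Exp105 the count was 1, without GFP-positive replicate Exp106 it was 5, and without Exp106 as a whole it was 6, with Ifit1 (1.84 ± 0.53, adjusted p = 0.0452), Psmb8 and a further Tapbp probe set added. On the scale as deposited the median of all probe sets in this comparison moved from -0.03 to 0.23 and that of the members from 0.33 to 0.55. At day 7 the medians moved from -0.01 to 0.12 and from 0.12 to 0.25, and between the days in unsorted cultures from -0.09 to 0.05 and from 0.09 to 0.29. At day 7 the same comparison called 0 members (0 at an unadjusted p under 0.05; 0 with a block), and 0% of all probe sets.

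Leukocyte marker levels varied over the same groups. The summed intensity of the 21 macrophage and leukocyte markers was 8079 to 9503 in GFP-positive, 16445 to 42691 in GFP-negative and 22633 to 48269 in unsorted cells at day 7. At day 17 it was 25440 to 100235 in GFP-positive, 83985 to 137079 in GFP-negative and 196553 to 251417 in unsorted cells. All 16 of these markers that were tested were below 0 between the day 17 fractions, with a median of -1.52. Of these limma called 0 (10 at an unadjusted p under 0.05, 1 with a block). In unsorted cultures all 19 tested lay higher at day 17 than at day 7, with a median of 2.85. Of the 19, 13 were called higher, against 3.04% of all probe sets. Lyz2, the macrophage lysozyme, read 5558, 4894 and 18284 in GFP-positive and 36095, 24935 and 14982 in GFP-negative cells at day 17, in the order Exp100, Exp105 and Exp106, so that Exp106 ran the other way. Csf1r, the macrophage growth factor receptor, read 1009, 734 and 1894 against 6270, 3324 and 1624. None was at 0, since the lowest value in the files is 10, and Ptprc, the pan-leukocyte CD45, read 10.7 to 309 in GFP-positive and 25.1 to 444 in GFP-negative cells. Fibroblast and progenitor markers, 9 on array A, summed to 119423 to 163877 in GFP-positive and 205172 to 296912 in GFP-negative cells at day 17, with 3 of 10 markers tested called lower. The 8 endothelial markers on array A summed to 6091 to 7757 in GFP-positive and 8283 to 12525 in GFP-negative cells at day 17, with Cdh5, Tek and Tie1 never above the array median. Pecam1, another endothelial marker, read 207 to 344 against 278 to 461. Between the day 7 fractions the 16 macrophage and leukocyte markers tested had a median of -1.63. The 10 fibroblast and progenitor markers tested had a median of 0.02 at day 7 and of -1.19 at day 17. For the 2 endothelial markers tested the medians were 0.26 and -1.12. In Exp106 at day 17 the macrophage sum was 100235 in GFP-positive cells, against 83985 in GFP-negative ones. The fibroblast and progenitor sum there was 163877 against 296912, and the endothelial sum 7757 against 12525. In the same samples Gbp2 read 156 against 663, Psmb8 1073 against 2545 and H2-D1 10281 against 17717. Gbp2 differed in Exp106 by -1.89, against -2.77 and -2.03 in Exp100 and Exp105, Psmb8 by -1.22, against -2.30 and -2.01, and H2-D1 by -0.78, against -1.21 and -0.77. The part of the macrophage, fibroblast and endothelial markers in the members' differences, the rise of H2-D1 and H2-K1 in unsorted cultures included, was not tested.

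**Figure D4:**
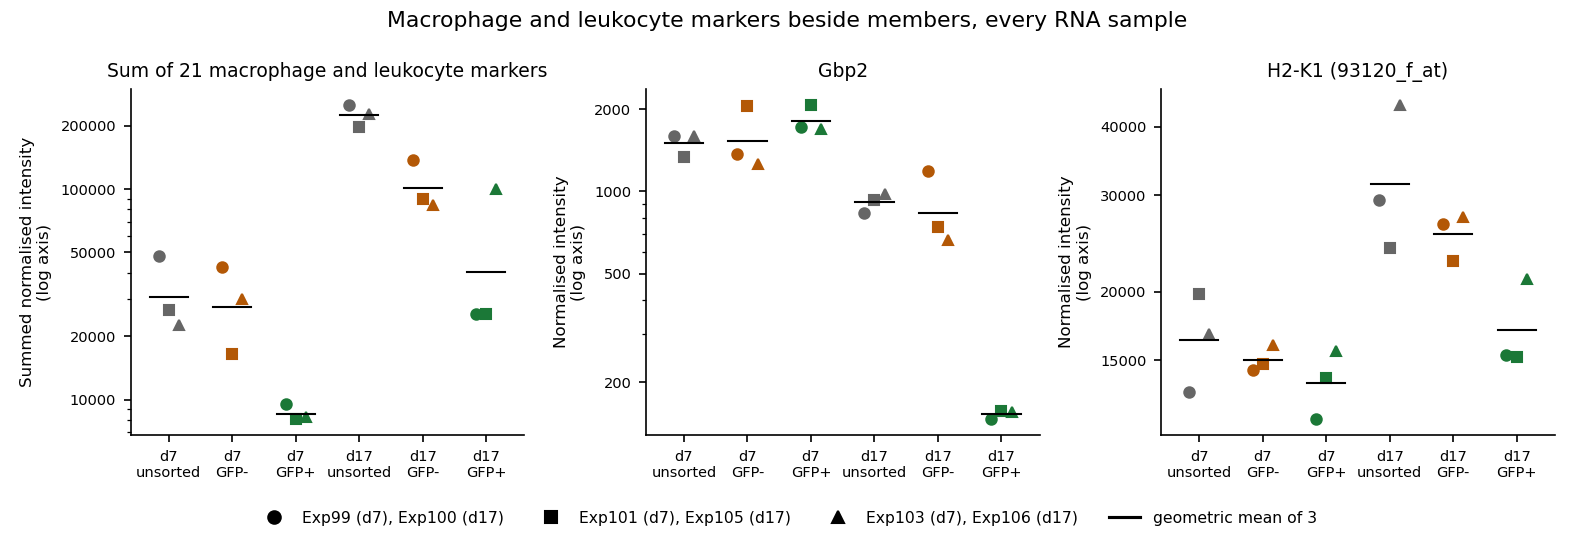
Summed normalised intensity of 21 macrophage and leukocyte markers, and the levels of Gbp2 and H2-K1, in each RNA sample (log axes; the line is the geometric mean of 3). In the GFP-positive sample of Exp106 at day 17 the marker sum is 100235, against 25440 and 25658 in the other GFP-positive day 17 samples, while Gbp2 reads 156 against 146 and 157.

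Several members were high in all samples of 1 experiment. Isg15 read 5812, 8584 and 8930.4 in the unsorted, GFP-negative and GFP-positive samples of Exp101 and 2065 to 3467 in the other 6 day 7 samples. At day 17 it read 3897, 5806 and 4485 in Exp106 and 1198 to 1891 in the other 6. In both cases the 3 samples of 1 experiment stood together above the rest. Irf9 read 4513, 3887 and 6419 in Exp106 and 687 to 1604 in the other day 17 samples, while at day 7 it kept to 1812 to 2396. Ifit1 read 835, 969 and 761 in Exp106. In Exp100 and Exp105 it was 248 and 294 in unsorted, 159 and 44.2 in GFP-negative and 33.4 and 21.5 in GFP-positive cells, so that its order over the fractions was the same in both. Gbp3, a relative of Gbp2, read 1478, 1668 and 1244 in Exp106, against 259.8 and 325 in the other GFP-positive samples, and Irgm1 1412 against 258 and 290.1. Gbp2 did not follow them, with 156 in Exp106 against 146 and 157.

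Over all member probe sets, the GFP-positive sample of Exp106 was more than 1 on the log2 scale above both others for 8 of 45, against 11.2% of all probe sets. These were probe sets of Gbp3, H2-D1, Ifit1, Irf1, Irf9, Irgm1, Isg15 and Socs1. For H2-D1 it was a dimmer probe set, at 4295 against 946 and 1380. The brightest one, used above, read 10281 against 9938 and 13405. The corresponding count was 4 of 45 in GFP-negative cells, against 8.42%, and 5 of 37 in unsorted cells, against 11.2%. In Exp101 it was 3 of 45 in GFP-positive cells (Gbp3, Ifit1 and Isg15), against 2.49%, and 1 of 45 in GFP-negative cells (Isg15), against 2.28%. These shares over all probe sets show that Exp106 was high for many genes besides the interferon response.

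**Figure D5:**
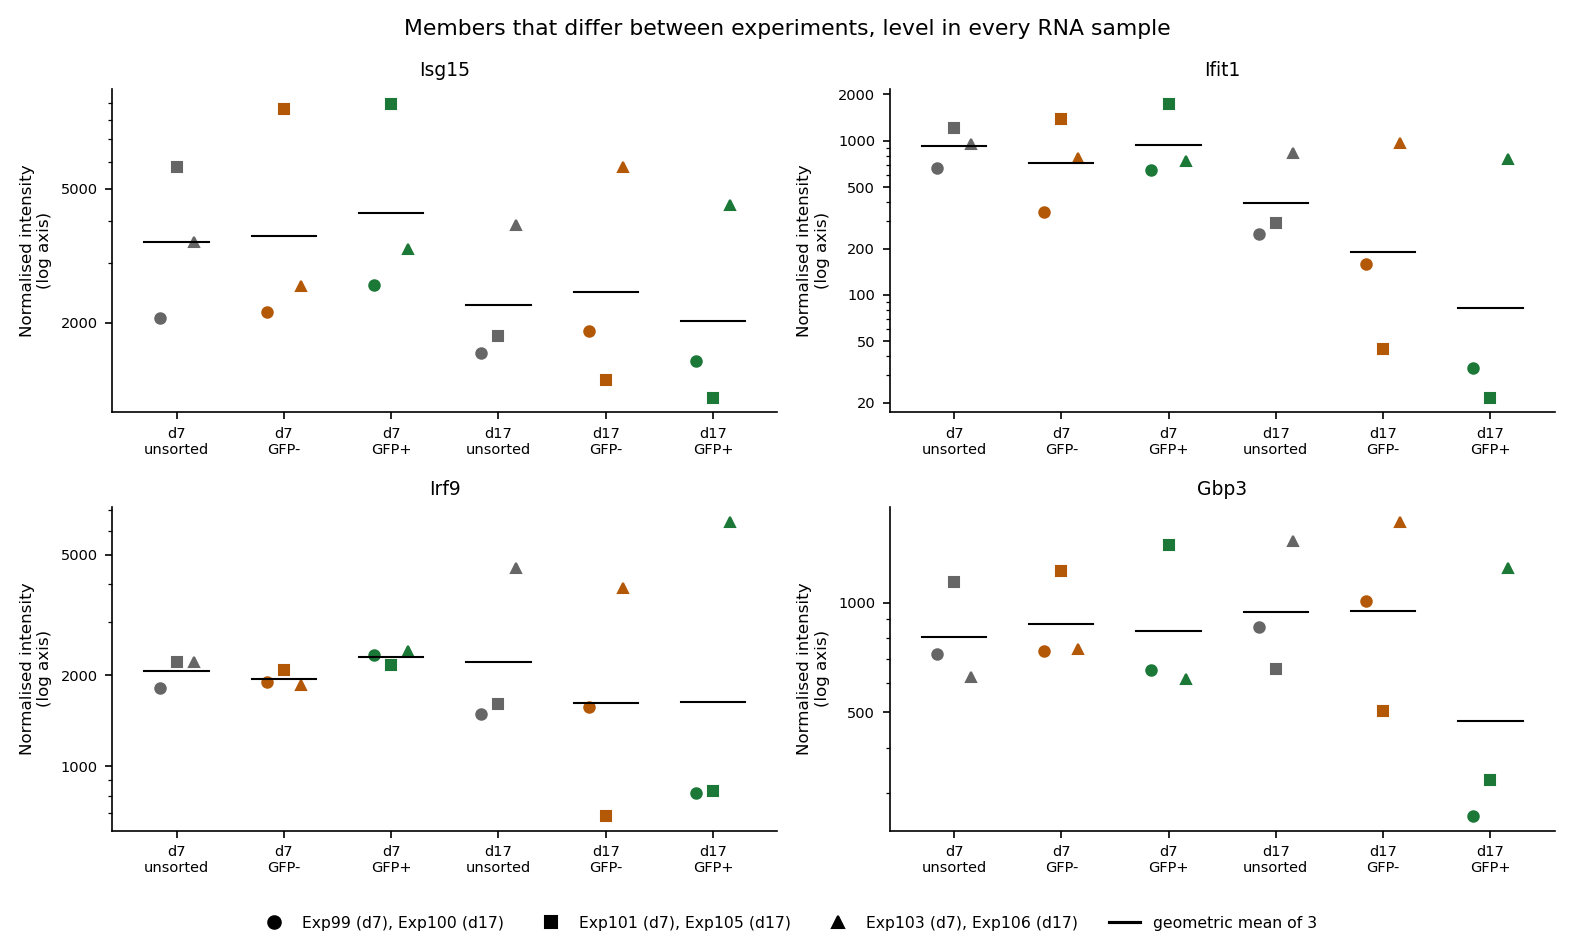
Normalised intensity (log axis) of Isg15, Ifit1, Irf9 and Gbp3 in each RNA sample; symbols mark experiments and the line is the geometric mean of 3. The 3 samples of Exp106 lie above the other day 17 samples, and those of Exp101 are the highest for Isg15 at day 7 (5812 to 8930.4).

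Among the dim members, Ifi47, Ifit3 and Mx2 were above the array median on 1, 2 and 2 of 18 arrays and were not tested. Ifi47, an immunity-related GTPase, read 30.3, 22.8 and 153 in GFP-positive and 595, 338 and 470.0 in GFP-negative cells at day 17, without overlap. Ifit3, a partner of Ifit1, read 56.0, 88.2 and 404 against 474, 219 and 337, and its highest value, 1015, was in the GFP-negative cells of Exp101. Mx2, an antiviral GTPase of the dynamin family, read 226 to 719. It was higher in GFP-positive than in GFP-negative cells in each day 7 experiment, by 0.13, 0.33 and 0.15 in Exp99, Exp101 and Exp103. At day 17 it was higher in Exp100 and Exp105, by 0.66 and 0.46, and differed by -0.74 in Exp106. Eif2ak2, the double-stranded RNA-activated kinase PKR, was tested in sorted cells on its array B probe set and in the comparisons with unsorted cells on its array A one. The array B probe set read 2140.0 to 3536 in all sorted samples but the GFP-positive one of Exp106, where it read 772.

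Probe sets of 1 gene were compared where there were several. Besides the chosen probe set, 26 more existed for 16 genes, and 18 of these 26 had the same sign between the day 17 fractions. Among the 17 that were tested, 13 had the same sign at day 17, and 5 correlated above 0.5 with the chosen probe set over the 12 sorted samples. Between the days in GFP-positive cells the same sign was found for 14 of 26, and for 10 of the 17 tested. There the other probe set of Gbp2 differed by 0.77 against -3.32, that of Psme1, never above the array median, by 0.96 against -1.35, and that of Stat2, not tested, by 0.10 against -1.43. Bright probe sets on array C, above the median on 13 of 13 arrays, ran against the chosen one too. That of Stat3 differed by -0.41 against 0.54 (correlation -0.76) and that of Irf7 by -0.48 against 0.30 (-0.62). On array A, tested probe sets of Tapbp (0.39 against -0.77), H2-K1 (-0.17 against 0.32) and Ifnar2 (-0.31 against 0.21) did so as well. A probe set of Adar on array C, never above the array median, differed by 1.17. The sign between the days in GFP-positive cells thus depended on the probe set for Stat3, Irf7, Tapbp, H2-K1 and Ifnar2, among others. The other probe sets of H2-D1 and H2-K1 had the sign of the chosen one between the day 17 fractions. Of these 6 probe sets, 5 carry the suffix that marks probes shared by a gene family, so signal from other class I genes cannot be separated from that of H2-D1 and H2-K1. For Gbp2 the other probe set, on array C, differed by 0.11 at day 17, and that of Psmb8, also on array C, by 0.38. They lay above the array median on 3 and 4 of 13 arrays, and neither was called. That of Gbp2 read 494, 306 and 881 in GFP-positive and 244, 280.2 and 1477 in GFP-negative samples at day 17. That of Psmb8 read 190.3, 1085 and 251 against 236, 368 and 263, and both pairs of groups overlapped. The calls of Gbp2 and Psmb8 thus rest on 1 probe set each. The Tapbp probe sets also disagreed in part. A further Tapbp probe set on array A, above the median on all 18 arrays, read 1879, 1814 and 3353 in GFP-positive and 1627, 1697 and 3222 in GFP-negative cells at day 17.

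Other genes of the pathway, from a list of 70 interferon and class I genes that are no members, had a probe set in 58 cases, of which 39 were tested in sorted cells. Of these limma called 0 between the fractions at day 7 (0 at an unadjusted p under 0.05) and 0 at day 17 (8 unadjusted), and 0 with a block on either day. Their median at day 17 was -0.21. From day 7 to day 17, 22 of the 39 were below 0 in GFP-positive cells and 2 were called lower, against 3.19% of all probe sets called lower. The 2 called were Ifi204 (-1.91 ± 0.33, adjusted p = 0.00687), a DNA-binding protein of an interferon-inducible family, and Parp9 (-1.16 ± 0.23, adjusted p = 0.0151), which acts in antiviral signalling. Irf5, a regulatory factor of myeloid cells, was the 1 of 25 called higher in unsorted cultures with time (1.59 ± 0.21, adjusted p = 0.000482), against 3.04% of all probe sets. For unsorted against sorted cells at day 17, 1 of 25 was called higher, against 1.49% of all probe sets. With the block it was 3, against 6.26%, and these genes are not named here. The 15 constitutive proteasome genes listed, among them Psmb5, Psmb6 and Psmb7, whose places the inducible subunits take, had a median of 0.22 between the day 17 fractions with 0 called (0 unadjusted, 0 with a block), where Psmb8 was -1.84. For unsorted against sorted cells at day 17, 0 of the 15 were called. With the block 9 were called lower in unsorted cells, where 453 of all 7455 probe sets were called lower. Of 9 interferon ligands 6 had a probe set, and 4 of their 7 probe sets were never above the array median on 18 arrays. The brightest by this count was above it on 15 arrays. On the chosen probe sets 1 ligand was tested. It differed by 0.31 between the day 17 fractions and by 0.70 between the days in GFP-positive cells, neither called. Ifng read 78.7 or less throughout, below the median of each array. Ifnb1, the beta interferon gene, read 22.2 to 268 in all samples but the GFP-negative one of Exp106 at day 17, where it read 598 and passed the median of that array only.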

How the data were processed

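RNA of 18 samples was hybridised to Affymetrix mouse arrays A, B and C, 44 arrays in all. The authors deposited for every array 1 intensity a probe set, linear and with a lowest value of 10; the summarisation and scaling behind it are not given in the sources used here. Gene symbols came from the platform annotation, updated through RefSeq names where possible. Intensities were quantile-normalised within array type and analysed as log2(intensity + 32), so that changes of dim probe sets are understated. Probe sets above the array median on at least 3 arrays of a fit were kept. Group means were fitted with limma 3.58.1 (R 4.3.3, empirical Bayes with an intensity trend, 2-sided), over the 12 sorted samples on arrays A, B and C, or over all 18 samples on array A where unsorted cells entered. P-values were adjusted (Benjamini-Hochberg) over all probe sets tested, for 8 comparisons. The code was tested on simulated data.

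Gene-level values used 1 probe set a gene, taken from A where present, otherwise B or C, and the brightest there over sorted samples. Sample values are given for members called with or without the block, or on which a statement turns, in the comparisons concerned. Pathway genes that are no members were named if called between the fractions or between the days, and called marker genes were only counted. Lyz2, Ptprc, Csf1r, Cd3e, Pecam1, Col1a1 and Ibsp were named as cell markers. Cdh5, Tek, Tie1, Ifng, Ifnb1 and the proteasome genes were chosen after their values were seen. Marker lists covered osteoblasts, fibroblasts, macrophages and leukocytes, T and NK cells, and endothelium. Members, lists and alternatives were chosen with earlier results of these data known. Sample titles give the fractions of a culture 1 experiment name, which pairs them; deviations from the group means correlated within experiments at 0.29 to 0.67 on array A, 0.11 to 0.51 on B and 0.02 to 0.43 on C. Experiment was therefore fitted as a block, random between days with statmod 1.5.0. Other alternatives were pseudocounts of 8 and 128, no filter, the deposited scale, only the groups compared, each sample or Exp106 left out, and, chosen after seeing the data, the variance estimated per array type. Nothing says that the experiments were separate animals or pools, so p-values measure only the spread between these samples. The unsorted sample of Exp106 on arrays B and C entered no fit.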

Additional observations from a re-analysis of the deposited data

How the results depend on the processing

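Of 336 member values (probe sets times comparisons), 137 changed sign under at least 1 alternative, Ifit1 between the day 17 fractions (-0.80) being the farthest from 0, and 0 of the 15 called values did. The counts of members called were within 1.5 times the main ones with a lower and a higher pseudocount, without the filter and on the deposited scale. Without the filter, H2-D1 between the day 17 fractions missed the threshold (adjusted p = 0.0501), and Tapbp lost its call for unsorted against sorted cells. Ifit2, never above the array median, was then called lower between the days in GFP-positive cells (-2.90 ± 0.61, adjusted p = 0.0259). On the deposited scale a further probe set of H2-K1 in unsorted cultures missed the threshold (0.0591). Without Exp106 the members called were 2 for the change of the GFP effect, 9 between the days in GFP-positive cells, 2 in GFP-negative ones, and 6 for unsorted against sorted cells at day 17. With only the groups compared, and thus fewer samples to estimate the spread, they were 0 between the day 17 fractions, 1 between the days in GFP-positive and 1 in unsorted cells, and 0 for unsorted against sorted cells at day 17. With the replicate block they were 5 between the day 17 fractions, also without Exp106, and 8 for unsorted against sorted cells at day 17. The block changed no other count by more than 1.5 times. With the variance estimated per array type, 1 member was called for the change of the GFP effect. Leaving out 1 sample at a time gave 1 to 3 members between the day 17 fractions, 0 to 1 for the change of the GFP effect, 1 to 7 and 1 to 4 between the days in GFP-positive and unsorted cells, and 0 to 5 for unsorted against sorted cells at day 17. The causes of these shifts were not tested. Dim signal limits the rest: 9 of 61 member probe sets never passed the array median, and 3 arrays a group leave small differences undetected.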

Other observations

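The unsorted day 17 sample of Exp106, the 1 unsorted sample hybridised to array B, read 2450.1 for Stat2 and 3534 for Adar. The sorted day 17 samples read 809.5 to 1194 for Stat2 and 1129 to 2156 for Adar, all below it. With 1 sample there is no spread to set this against, and no test was made.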
